A study of Bos taurus with 31 samples.

Results

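The genes described here encode 10 enzymes of serine, glycine and amino group metabolism in bovine liver, namely *PHGDH*, *PSAT1*, *PSPH*, *SHMT1*, *SHMT2*, *AMT*, *GPT2*, *GOT1*, *GOT2* and *TAT*. They were taken by their gene symbol from a table of 24616 genes, where each symbol had a single row, and all 10 were among the 15916 genes with enough reads to be tested. RNA came from puncture biopsies of the liver of 31 lactating German Holstein cows after 16 weeks of feeding. The cows received either a ration contaminated with residues of a glyphosate formulation that had been applied to peas, wheat grain and straw before harvest (GLY) or a control ration with only traces of such residues (CON), and the concentrate feed proportion (CFP) was either 60% (HC) or 30% (LC) of dry matter. The 4 groups were CONHC (8 cows), CONLC (8 cows), GLYHC (8 cows) and GLYLC (7 cows), each cow gave 1 library, and all groups were kept on mixed rations of maize silage, grass silage, straw and concentrate.

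The liver makes serine from the glycolytic intermediate 3-phosphoglycerate in a short chain of reactions, in which *PHGDH* (phosphoglycerate dehydrogenase) oxidizes it, *PSAT1* (phosphoserine aminotransferase) adds an amino group from glutamate and *PSPH* (phosphoserine phosphatase) releases serine. *SHMT1* in the cytosol and *SHMT2* in mitochondria convert serine to glycine and pass a carbon unit to folate, and *AMT* is the aminomethyltransferase of the glycine cleavage system, which breaks glycine down in mitochondria. *GPT2* (mitochondrial alanine transaminase), *GOT1* and *GOT2* (cytosolic and mitochondrial aspartate transaminase) and *TAT* (tyrosine aminotransferase) exchange amino groups between amino acids and keto acids and so tie amino acid breakdown to gluconeogenesis, which supplies most of the glucose of a ruminant.

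The values of *PHGDH* and *AMT* between CONHC and CONLC and that of *GPT2* between GLYLC and CONLC were known when the enzymes were chosen. The comparisons of CONHC with CONLC and of GLYLC with CONLC are therefore a description, and nothing is supported with them. The interaction, the models over all cows and the comparisons that share one of these groups contain the same cows and are not independent of them. It is not stated which values made the choice, and those named are taken to be the ones used. The variation between cows of the same group enters any test of a difference between groups. The correlations between cows may therefore also not be independent of the choice.

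The number of reads assigned to genes lay between 11675775 and 36675542 in a cow (median 19781078). The median was lowest in CONHC (15639368), with 22532846 in CONLC, 21741496 in GLYHC and 20722019 in GLYLC. The part of this difference in the results was not tested. Levels are given as CPM (counts scaled to a common library size), with library sizes scaled by the TMM method. Levels are compared between cows and groups only, since reads were not divided by gene length. The hepatocyte markers were all detected and their summed level was between 108212 and 216690 CPM. The number of reads behind a level was lowest for *PSPH* (between 86 and 2115 reads per cow) and *GPT2* (between 103 and 767) and highest for *SHMT1* (between 12266 and 42266).

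Cow 912 of GLYLC stood apart from the other cows. It had the lowest hepatocyte marker sum, which ranged from 163412 to 216690 CPM in CONHC, 128525 to 212835 in CONLC, 151388 to 202169 in GLYHC and 108212 to 205595 in GLYLC. *ALB*, at a mean of 107035 CPM, was the largest part of this sum, and the low sum does not hold for each marker. *FGB* (42252 CPM, median of all cows 20007) and *APOA1* (714 CPM, median 261) were highest in cow 912. Its 5 smooth muscle markers summed to 1621 CPM, while the highest sum in another cow was 279 in CONHC, 404 in CONLC, 205 in GLYHC and 221 in GLYLC. Its 8 detected intestinal markers of 10 listed summed to 608 CPM, with a highest sum in another cow of 247 in CONHC, 338 in CONLC, 395 in GLYHC and 155 in GLYLC. Of these intestinal markers, *FABP2*, *BCO1*, *MUC13* and *OLFM4* were at 0 in 24, 23, 25 and 21 of the 31 cows. Cow 912 had the lowest level in GLYLC for 6 of the 10 enzymes, *PHGDH*, *PSAT1*, *SHMT2*, *AMT*, *GOT2* and *TAT*, and the highest for *GOT1*. Each comparison with GLYLC is therefore also given without this cow, and the part of its markers in the results was not tested beyond that.

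*PHGDH* (ENSBTAG00000039719), which catalyses the entry step of serine synthesis, had a lowest, median and highest level of 71.5, 95.5 and 136 CPM in CONHC and of 101, 139 and 209.9 in CONLC. In GLYHC these values were 89.4, 128 and 187 CPM, and in GLYLC they were 56.3, 113 and 173. CONHC cows lay low and CONLC cows high, since 5 of 8 CONHC cows were below each CONLC cow and 5 of 8 CONLC cows above each CONHC cow, whereas the GLY groups overlapped broadly. *PSPH* (ENSBTAG00000013081), which ends the chain, had 5.85, 8.63 and 12.3 CPM in CONHC and 8.71, 12.8 and 72.7 in CONLC. In GLYHC it had 6.29, 8.95 and 50.9 CPM, and in GLYLC 5.11, 8.61 and 19.5. The high end of *PSPH* was made up of few cows, with cow 260 at 72.7 CPM and a next value of 30.6 in CONLC and cow 131 at 50.9 CPM and a next value of 14.5 in GLYHC. *PSAT1* (ENSBTAG00000013960), the transaminase in the middle of the chain, had 337 ± 35.0 CPM in CONHC, 322 ± 27.3 in CONLC, 319 ± 65.5 in GLYHC (SD, n = 8 each) and 253 ± 93.6 in GLYLC (SD, n = 7). Its lowest GLYLC value was 78.3 CPM in cow 912 and the next was 228, and the other 6 GLYLC cows lay within the range of GLYHC.

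Of the enzymes that interconvert serine and glycine, the mitochondrial *SHMT2* (ENSBTAG00000031500) had a lowest, median and highest level of 44.6, 59.6 and 90.4 CPM in CONHC and of 63.1, 79.3 and 88.9 in CONLC. In GLYHC it had 61.5, 77.2 and 100.4 CPM, and in GLYLC 27.9, 64.1 and 79.4. In CONHC, 5 of 8 cows were below each CONLC cow, but cow 134 was above each of them, and in GLY cows the order was opposite, with 4 of 8 GLYHC cows above each GLYLC cow. The cytosolic *SHMT1* (ENSBTAG00000017094) had 1151 ± 62.3 CPM in CONHC, 1093 ± 292 in CONLC, 1199 ± 195 in GLYHC (SD, n = 8 each) and 1181 ± 229.8 in GLYLC (SD, n = 7). All 8 CONHC cows were above the CONLC median of *SHMT1* and 5 of 8 CONLC cows below each CONHC cow, but 2 CONLC cows were above each of them, and the coefficient of variation was 5.41% in CONHC and 26.7% in CONLC. *AMT* (ENSBTAG00000002321) of the glycine cleavage system had 28.3, 35.4 and 47.6 CPM in CONHC, 38.8, 48.1 and 53.0 in CONLC, 31.9, 39.5 and 53.7 in GLYHC and 18.7, 42.7 and 57.5 in GLYLC. All 8 CONHC cows were below the median of CONLC, and the lowest and the highest value of GLYLC enclosed all cows of the other groups.

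Among the transaminases, *GPT2* (ENSBTAG00000002980) had a lowest, median and highest level of 7.26, 10.5 and 13.9 CPM in CONHC and of 12.9, 16.8 and 26.4 in CONLC. In GLYHC these values were 9.72, 14.04 and 20.8 CPM, and in GLYLC they were 5.69, 9.37 and 13.6. The order of the means was thus CONLC (18.2 ± 5.25 CPM), GLYHC (14.4 ± 3.52), CONHC (10.5 ± 2.13) and GLYLC (9.86 ± 2.96), with SD over 8, 8, 8 and 7 cows. Each neighbouring pair in this order overlapped, but 7 of 8 CONLC cows were above each CONHC cow and also 7 of 8 above each GLYLC cow. *GOT1* (ENSBTAG00000011960) had 100.3 ± 50.1 CPM in CONHC, 90.1 ± 32.4 in CONLC, 88.8 ± 34.3 in GLYHC (SD, n = 8 each) and 91.3 ± 26.2 in GLYLC (SD, n = 7). *GOT2* (ENSBTAG00000007172) had 448 ± 51.3 CPM in CONHC, 506 ± 38.9 in CONLC, 465 ± 70.0 in GLYHC and 459.7 ± 116 in GLYLC, with the same numbers of cows. For *GOT2*, 5 of 8 CONHC cows were below each CONLC cow and 3 of 8 CONLC cows above each CONHC cow, whereas the GLY groups overlapped broadly. *TAT* (ENSBTAG00000002214) had 610.3 ± 148 CPM in CONHC, 612 ± 224 in CONLC, 516 ± 55.9 in GLYHC (SD, n = 8 each) and 474 ± 140.3 in GLYLC (SD, n = 7), and its CON cows reached higher than its GLY cows, up to 1033 CPM in CONLC against 655 in GLYLC. In none of the 4 comparisons of groups did the ranges of an enzyme keep apart. Of all genes, they did for 0.0188% between CONHC and CONLC and 0.0942% between GLYHC and GLYLC. The share was 0.00628% between GLYHC and CONHC and 0.00628% between GLYLC and CONLC. With shares this small, none among 10 enzymes does not set them apart from other genes.

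**Figure D1:**
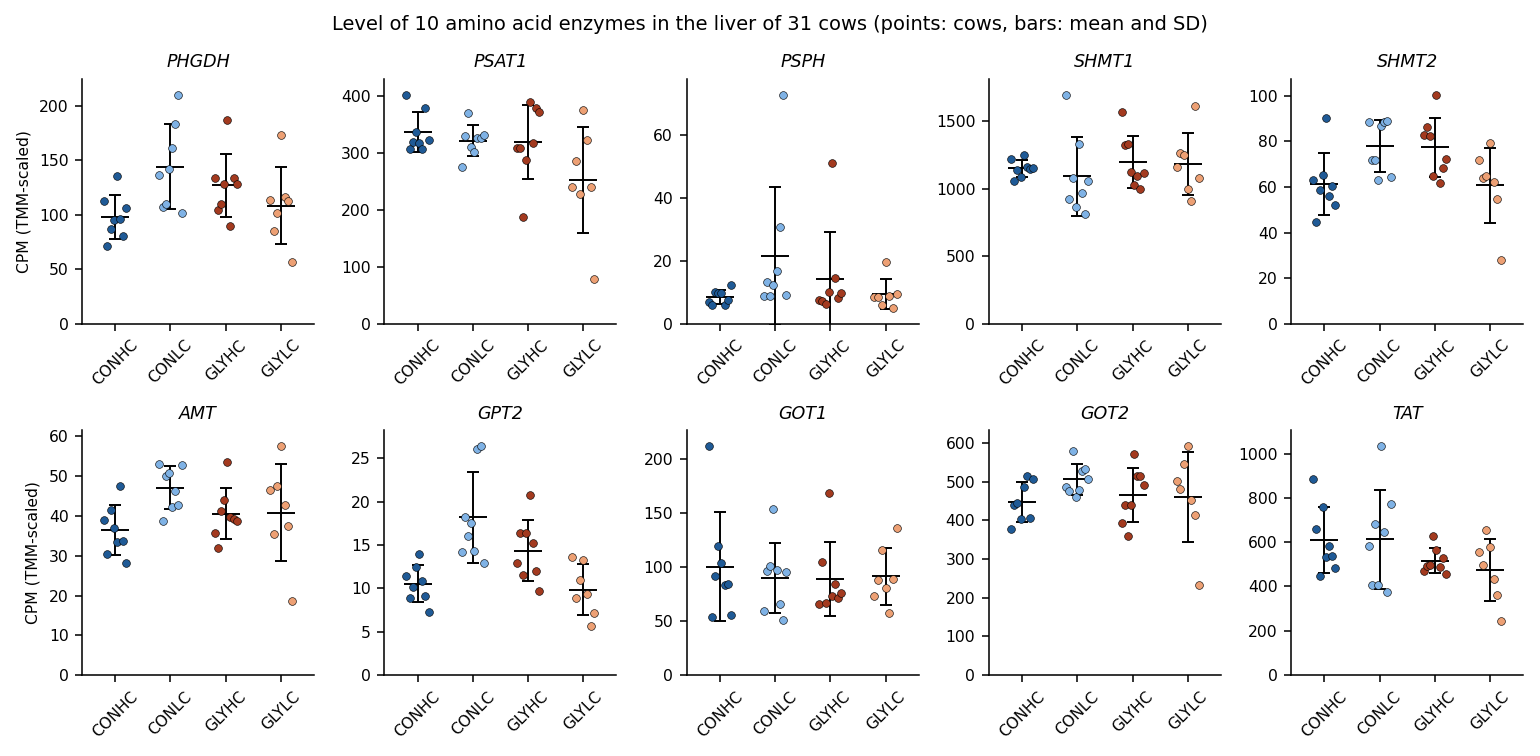
Level of each enzyme in CPM (vertical axes, starting at 0) for the cows of the 4 feeding groups (horizontal axes), with 1 point per cow and bars for the mean and SD, where the lower bars of PSPH in CONLC and GLYHC are cut at 0. GPT2 is high in CONLC and GLYHC and low in CONHC and GLYLC, the high PSPH means rest on cow 260 (72.7 CPM) and cow 131 (50.9 CPM), and the lowest GLYLC point of PSAT1, SHMT2, AMT, GOT2 and TAT is cow 912.

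Whether the response to CFP differed between GLY and CON cows was examined with the interaction of GLY with CFP, which is the log2 fold change from LC to HC in GLY cows minus that in CON cows. *GPT2*, *PSPH*, *PHGDH* and *SHMT2* had the largest interactions of the 10 enzymes, all positive, with negative log2 fold changes from LC to HC in CON cows and positive ones in GLY cows. Of the positive ones, those of *PHGDH* and *PSPH* had an unadjusted p above 0.05, and that of *PSPH* rested on GLYHC cow 131. The interaction of *GPT2* was 1.33 (standard error 0.26) on the log2 scale. For *PSPH* it was 1.94 (0.63), for *PHGDH* 0.78 (0.26) and for *SHMT2* 0.70 (0.22). The tests were edgeR quasi-likelihood F tests on the counts of all 15916 genes in a single model of the 4 groups, and a gene was called when its unadjusted p was under 0.05 and its Benjamini-Hochberg adjusted p under 0.1.

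In that model 0 of the 10 enzymes and 0 of all genes (0%) were called for the interaction. An unadjusted p under 0.05 was found for 4 of the 10 enzymes, all 4 with a positive interaction, against 4.21% of all genes in either direction and 1.9% with a positive interaction. Since the interaction contains the differences by which *PHGDH*, *AMT* and *GPT2* were chosen, nothing is read from this count or from the ranks that follow. *GPT2* had the smallest p of all 15916 genes, but its adjusted p was 0.251 in edgeR, whereas DESeq2 on all cows gave an adjusted p of 0.00824 and called *GPT2* as its single gene. *SHMT2* was at rank 41 by p, *PSPH* at rank 63 and *PHGDH* at rank 70, each with an adjusted p of 0.999 in edgeR. *AMT* had an interaction of 0.36 (standard error 0.21), *PSAT1* of 0.27 (0.25), *GOT2* of 0.19 (0.18) and *TAT* of 0.13 (0.27). *SHMT1* and *GOT1* had values of -0.05 (0.18) and -0.19 (0.36). The median over the 10 enzymes was 0.32, while that over all genes was 0.01, and it was 0.17 without cow 912 and 0.43 without GLYLC cow 209.

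When each cow was left out in turn, *GPT2* had the smallest p of all genes in each of the 31 fits, with an interaction between 1.23 and 1.43 and an adjusted p between 0.109 and 0.686 (edgeR). The largest adjusted p was found without cow 912, where the interaction was 1.26. *PSPH* was sensitive to single cows, as its interaction was 1.28 without GLYHC cow 131. Without cows 912, 260 and 131, a setting chosen after the levels had been seen, the interaction was 1.08 for *GPT2*, again with the smallest p of all genes, 0.48 for *SHMT2*, 0.47 for *PHGDH* and 0.67 for *PSPH*. The unadjusted p of *PSPH* was then above 0.05 and that of the other 3 below it.

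In CON cows the question was what differed with CFP on the control ration. *GPT2*, *PSPH*, *PHGDH*, *AMT* and *SHMT2* were lower in CONHC than in CONLC, with log2 fold changes of -0.79 (standard error 0.18), -1.34 (0.44), -0.55 (0.18), -0.37 (0.14) and -0.35 (0.15), in this order. The second serine synthesis enzyme *PSAT1* (0.07, standard error 0.17) and the cytosolic *SHMT1* (0.07, 0.13) stayed close to 0, and so did *TAT* (0.00, 0.19). Their normal 95% intervals reached from -0.28 to 0.41 for *PSAT1*, from -0.17 to 0.32 for *SHMT1* and from -0.37 to 0.36 for *TAT*. *GOT1* had 0.16 (0.25) and *GOT2* -0.18 (0.12). In bulk tissue, fewer cells of a type and less RNA per cell cannot be told apart, so that a lower level of an enzyme of hepatocytes is a lower share of the liver's reads.

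An unadjusted p under 0.05 was found for 5 of the 10 enzymes, all lower in CONHC, against 5.96% of all genes and 3.25% that were lower, and since this comparison chose members nothing is read from these counts. The edgeR model called 0 of them and 0 of all genes (0%), while DESeq2 on all cows called *GPT2* and DESeq2 on only the compared groups called *AMT* and *PHGDH*. The median log2 fold change was -0.26 over the enzymes and -0.01 over all genes. Without CONLC cow 260 the log2 fold change of *PSPH* was -0.73, and 3 of the 10 enzymes then had an unadjusted p under 0.05.

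In GLY cows *GPT2* and *SHMT2* had higher levels in GLYHC than in GLYLC, which is the direction opposite to that in CON cows. The log2 fold change of *GPT2*, the alanine transaminase, was 0.54 (standard error 0.19, adjusted p = 0.236 from edgeR) and that of *SHMT2* 0.35 (0.16, adjusted p = 0.350). *PSPH* had 0.60 (0.45), but -0.06 (0.38) without cow 131. *PSAT1* had 0.33 (0.18), *PHGDH* 0.23 (0.18) and *TAT* 0.12 (0.19). *SHMT1* (0.02), *GOT2* (0.02), *AMT* (-0.01) and *GOT1* (-0.04) were within 1 standard error of 0. Of the 10 enzymes 0 were called, against 0.201% of all genes, and 2 had an unadjusted p under 0.05, both higher, against 12.5% of all genes and 5.06% that were higher. As the GLYLC cows also took part in the choice of *GPT2*, nothing is read from this count or from the contrast with CON cows.

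The median over the enzymes was 0.18, and over all genes it was -0.01. Without cow 131 the median of the enzymes was 0.08, without cow 912 it was 0.10 and without GLYLC cow 209 it was 0.28. Without cow 912 the log2 fold change was 0.47 for *GPT2* and 0.22 for *SHMT2*, whose unadjusted p was then above 0.05, and *AMT* had -0.14. Only 1 enzyme had an unadjusted p under 0.05 without cow 912, GLYLC cow 905 or GLYHC cow 37 or 131, and 4 had one without GLYLC cow 209. The share of all genes in these fits is not given, and the genes called ranged from 0 to 150 when each cow was left out. Nothing is therefore read from these counts, and the same holds for such counts in the other comparisons.

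Between GLYHC and CONHC, which compares the contaminated with the control ration at high CFP, *GPT2*, *PHGDH* and *SHMT2* had higher levels in GLYHC, with log2 fold changes of 0.45 (standard error 0.18), 0.37 (0.18) and 0.34 (0.15). These 3 of 10 enzymes had an unadjusted p under 0.05, against 2.92% of all genes and 1.6% that were higher, and as the CONHC cows also took part in the choice of *PHGDH* and *AMT*, nothing is read from this count. Their adjusted p was 1 in edgeR, and 0 enzymes and 0 of all genes (0%) were called. *PSPH* had 0.74 (0.44), but 0.08 (0.37) without cow 131. *AMT* had 0.16 (0.14), *SHMT1* 0.06 (0.13) and *GOT2* 0.06 (0.12), while *PSAT1* (-0.08, 0.17), *GOT1* (-0.18, 0.25) and *TAT* (-0.24, 0.19) had negative values. All 8 GLYHC cows were above the CONHC median of *SHMT2*, but the ranges overlapped for all 10 enzymes. Without GLYHC cow 131, which had the highest level of its group for 7 of the 10 enzymes, none of them had an unadjusted p under 0.05, the log2 fold changes being 0.36 for *GPT2* and 0.27 for *PHGDH* and *SHMT2*, and without CONHC cow 41 or 144 it was 1 enzyme.

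At low CFP the direction was opposite, with lower levels of *GPT2*, *PSPH*, *PHGDH* and *SHMT2* in GLYLC than in CONLC. *GPT2* fell by 0.88 (log2) with a standard error of 0.19 and an edgeR adjusted p of 0.0871, and it was the only enzyme called and the single gene called lower, against 0.0628% of all genes called and 0.00628% called lower. *PSPH* had -1.20 (0.45), *PHGDH* of -0.41 (0.19), *TAT* of -0.37 (0.20), *SHMT2* of -0.36 (0.16) and *PSAT1* of -0.35 (0.18). *AMT* (-0.21, 0.15) and *GOT2* (-0.14, 0.13) had smaller values, and *SHMT1* (0.11, 0.13) and *GOT1* (0.02, 0.26) were on the other side of 0. An unadjusted p under 0.05 was found for 4 of 10 enzymes, all lower in GLYLC, against 5.65% of all genes and 1.94% that were lower, from which nothing is read since *GPT2* was chosen by this comparison.

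The call of *GPT2* rested on the setting. Without cow 912 its log2 fold change was -0.81 and its adjusted p 1 in edgeR, although its p was then the smallest of all genes. Of the 31 fits that left out 1 cow, 5 kept the call, namely those without GLYLC cow 42, 147, 209 or 544 or without GLYHC cow 131, and the adjusted p ranged from 0.0395 to 1 over the 31. The median over the 10 enzymes was -0.35 with all cows, -0.21 without cow 912 and 0.00 over all genes. Without cow 912 the log2 fold change was -0.29 for *PHGDH*, -0.23 for *SHMT2* and -0.18 for *PSAT1*, and without CONLC cow 260 it was -0.58 for *PSPH*. Without either of these cows 2 enzymes had an unadjusted p under 0.05.

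**Figure D2:**
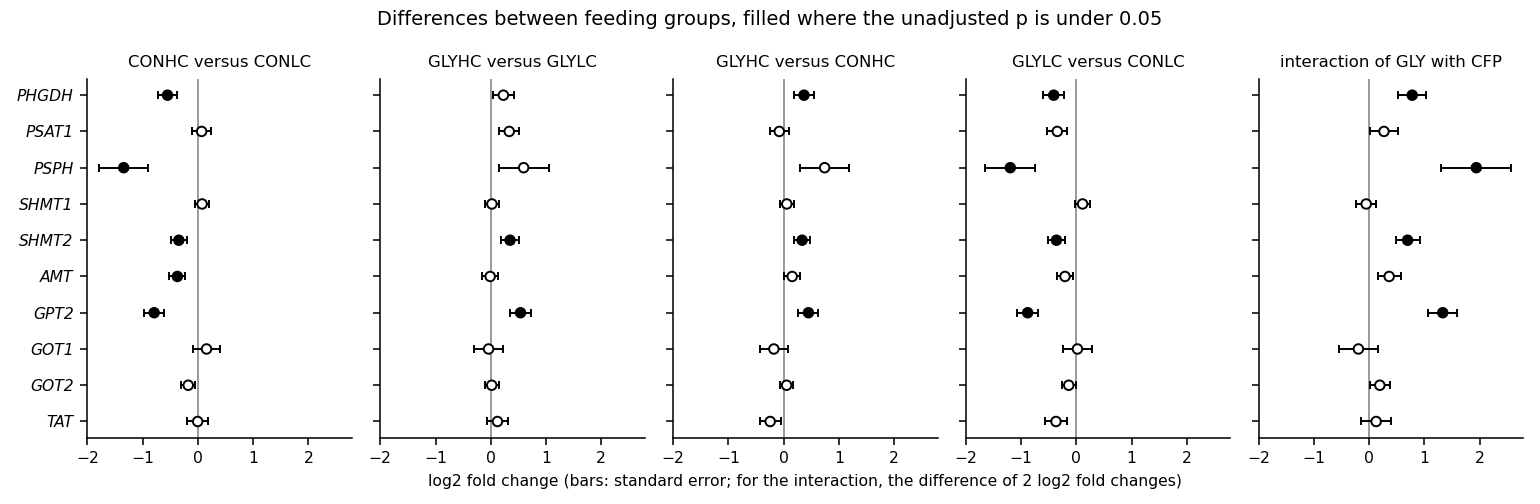
Log2 fold changes of the 10 enzymes (horizontal axes, bars for the standard error) in the 4 comparisons between groups and in the interaction of GLY with CFP, with filled points where the unadjusted p of the edgeR test was under 0.05. GPT2, PSPH, PHGDH and SHMT2 lie left of 0 in CONHC versus CONLC and in GLYLC versus CONLC and right of 0 in the other panels, where the values of PSPH in GLYHC versus GLYLC and GLYHC versus CONHC rest on cow 131 (-0.06 and 0.08 without it). The comparisons share cows, so that the panels are not independent of each other.

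Over all cows, the log2 fold changes between HC and LC lay between -0.41 and 0.20 for the 10 enzymes. In an additive model that compared HC with LC cows and adjusted for treatment, 0 of the 10 enzymes had an unadjusted p under 0.05, against 13.7% of all genes, and 0 were called, against 1.45% of all genes. The log2 fold change was -0.15 (standard error 0.18) for *GPT2*, -0.41 (0.37) for *PSPH*, -0.18 (0.15) for *PHGDH* and -0.01 (0.12) for *SHMT2*. *AMT* had -0.20 (0.11, adjusted p = 0.420 in edgeR) and *PSAT1* 0.20 (0.13). The normal 95% interval of *SHMT2* reached from -0.25 to 0.23 and that of *GPT2* from -0.50 to 0.20. Without cow 912 or GLYHC cow 131, 2 enzymes had an unadjusted p under 0.05, and without CONHC cow 144 it was 1. *PSPH* had -0.75 without cow 131. *AMT* had -0.26 without cow 912, and it was called without cows 912, 260 and 131 (-0.30, adjusted p = 0.0791 in edgeR).

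In the corresponding model that compared GLY with CON cows and adjusted for CFP, *TAT*, which breaks down tyrosine, had a value of -0.30 (standard error 0.13, log2 scale), and its adjusted p was 0.99994 in edgeR. It was the only enzyme of the 10 with an unadjusted p under 0.05, against 3.92% of all genes and 1.45% that were lower, and 0 were called, as were 0 of all genes (0%). *GPT2* had -0.19 (0.18), *PHGDH* -0.01 (0.15) and *SHMT2* 0.00 (0.12). For *TAT*, the value was between -0.34 and -0.23 when a cow was left out, and without cow 912, GLYLC cow 905, CONHC cow 7 or CONLC cow 169 its p was above 0.05.

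Whether the enzymes varied together between cows that were fed alike was examined on log2 CPM after the mean of each group had been removed, for all 45 pairs over 31 cows. Both values of a cow come from the same library. *PHGDH*, *SHMT2* and *GPT2* were positively correlated with each other and *PSPH* with *PHGDH* and *GPT2*, whereas *PSPH* and *SHMT2* had an r of 0.31. *GOT1* and *SHMT1* had an r between -0.52 and 0.22 with each of the other enzymes. The relation of *PHGDH* with *SHMT2* was past the threshold in each leave-one-out analysis (Pearson r = 0.75, permutation p = 3e-05, adjusted p = 0.00135 over 45 pairs; Spearman rho = 0.63, permutation p = 0.00049, adjusted p = 0.0220). Without the cows farthest from the median of *PHGDH*, GLYLC cows 209 and 912, r was 0.62, and in the 31 leave-one-out analyses r lay between 0.66 and 0.78 with an adjusted p under 0.05 in each. Of 11834 other genes with a mean level of at least 1 CPM, *SHMT2* had the highest r with *PHGDH*, while *PHGDH* was at rank 22 for *SHMT2*. The other pairs with an adjusted p under 0.05 by r, given below, had ranks between 6 (*PSPH* for *GPT2*) and 463 (*TAT* for *AMT*). For *SHMT2*, *GPT2* was at rank 417.

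*SHMT2* and *GPT2*, both mitochondrial, had r = 0.56 (permutation p = 0.00224, adjusted p = 0.0252) and rho = 0.56 (permutation p = 0.00201, adjusted p = 0.0452), and r was 0.54 without CONHC cow 134 and GLYLC cow 912. The adjusted p of this pair rose above 0.05 without GLYHC cow 131, GLYLC cow 209 or CONHC cow 134, with r of 0.52 each. *PSPH* and *GPT2* had r = 0.61 (permutation p = 0.00054, adjusted p = 0.0121) and rho = 0.49 (permutation p = 0.00822, adjusted p = 0.0891), and r = 0.47 without cows 260 and 131. *PHGDH* and *PSPH*, the ends of the serine chain, had r = 0.58 (permutation p = 0.0009, adjusted p = 0.0135) and rho = 0.48 (permutation p = 0.0099, adjusted p = 0.0891), and r = 0.63 without cows 209 and 912. For *PHGDH* and *GPT2* r was 0.52 (permutation p = 0.00623, adjusted p = 0.0400) and rho 0.42 (permutation p = 0.0277, adjusted p = 0.159), and r = 0.44 without the same cows. The adjusted p of this last pair was above 0.05 in 12 of the 31 leave-one-out analyses, with r between 0.47 and 0.61.

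The correlations of *PSAT1* with *GOT2* (r = 0.78, permutation p = 0.00368, adjusted p = 0.0331; rho = 0.35, permutation p = 0.0720), of *AMT* with *GOT2* (r = 0.70, permutation p = 0.00592, adjusted p = 0.0400; rho = 0.42, permutation p = 0.0282) and of *AMT* with *TAT* (r = 0.52, permutation p = 0.00761, adjusted p = 0.0428; rho = 0.46, permutation p = 0.0139) had an adjusted p above 0.05 in 4, 10 and 16 of the 31 leave-one-out analyses, in this order. Without GLYHC cow 117 and cow 912 r was 0.38 for *PSAT1* and *GOT2*. Without cows 209 and 912 it was 0.30 for *AMT* and *GOT2* and 0.29 for *AMT* and *TAT*. The share of pairs of other genes that would pass the same threshold was not determined. The counts of pairs that follow therefore do not set these enzymes apart from other genes. In total 8 of 45 pairs had an adjusted p under 0.05 by Pearson's r, all positive, and 2 by Spearman's rho. Without GLYHC cow 131 it was 1 pair by Pearson's r, without GLYLC cow 209 it was 2, without cow 912 it was 4, and without cows 912, 260 and 131 together it was 0, where *PHGDH* and *SHMT2* had r = 0.59 (permutation p = 0.00216, adjusted p = 0.0972).

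**Figure D3:**
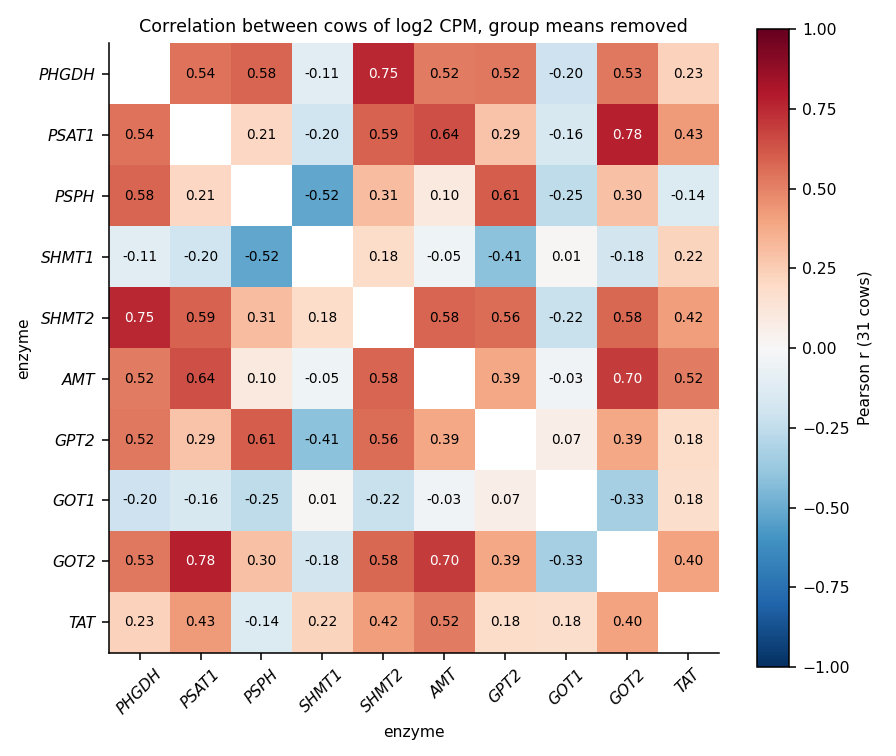
Pearson r for each pair of the 10 enzymes (both axes) over 31 cows, computed on log2 CPM after the group means had been removed, with red for positive and blue for negative values. PHGDH with SHMT2 (0.75), PSAT1 with GOT2 (0.78) and AMT with GOT2 (0.70) have the highest values, and those with GOT2 are 0.38 and 0.30 without 2 cows each.

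**Figure D4:**
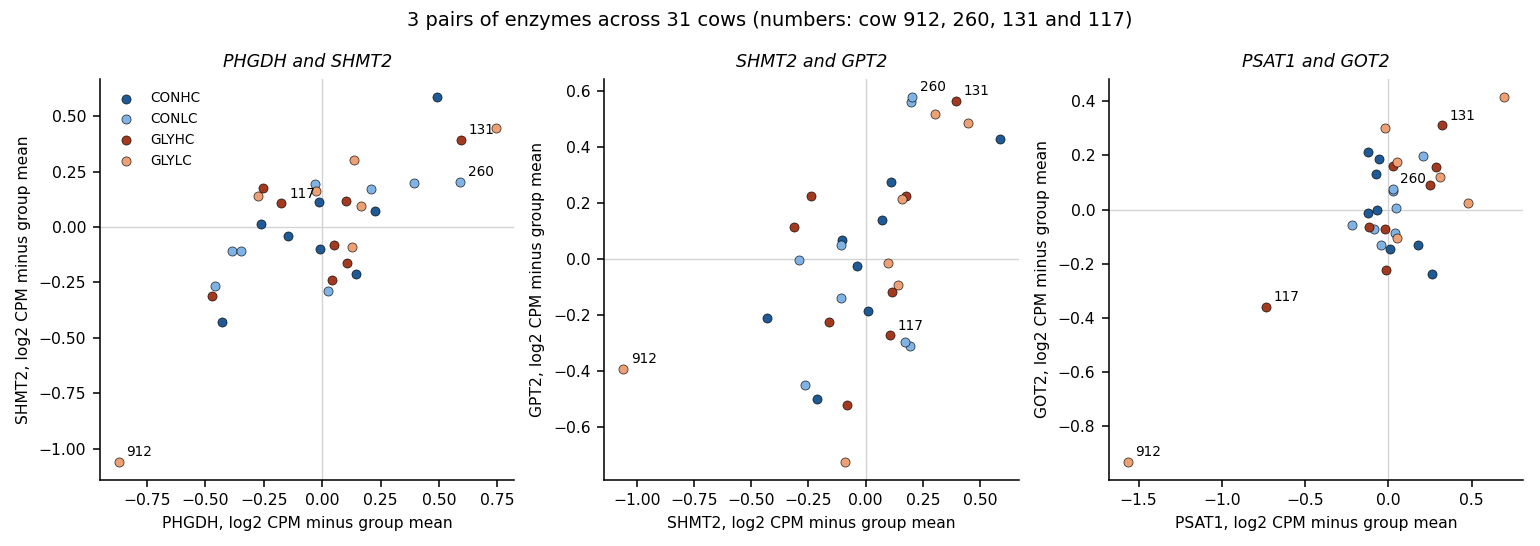
Level of 3 pairs of enzymes as log2 CPM minus the group mean (both axes), with 1 point per cow in the colour of its feeding group. In PHGDH and SHMT2 the cows spread along the diagonal also without cow 912, while in PSAT1 and GOT2 cows 912 and 117 lie far from a cloud of cows that shows little relation.

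Other enzymes had their closest partners outside the set. By Pearson r over the same 31 cows, these were *GAS2* for *PSAT1* (0.88), *SRXN1* for *PSPH* (0.81), *CLUH* for *SHMT1* (0.84), *ZBTB9* for *SHMT2* (0.84) and *DMTN* for *AMT* (0.82). For the transaminases they were *VAPB* for *GPT2* (0.66), *PLSCR3* for *GOT1* (0.66) and *CRCP* for *TAT* (0.88). For comparison, the central 80% of all genes had an r between -0.29 and 0.34 with *PHGDH* and between -0.41 and 0.44 with *PSAT1*.

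The genes around these enzymes were described by 7 lists. For the interaction, none of their genes was called in edgeR. An unadjusted p under 0.05 was found for 0 of 8 genes of serine synthesis and breakdown, 1 of 10 of glycine cleavage and use, 0 of 12 of the folate one-carbon cycle, 1 of 12 other transaminases and 0 of 16 partners of the transaminases (ammonia, malate shuttle and tyrosine breakdown), against 4.21% of all genes. *AGXT*, a peroxisomal transaminase that makes glycine from glyoxylate, was the gene of both lists with 1. It was 2 of 13 genes of the response to ATF4, a transcription factor that activates serine synthesis genes when amino acids are short, and 1 of 9 genes of the glucocorticoid and cAMP response. The median interaction of these lists lay between -0.03 for the ATF4 response and 0.23 for the partners of the transaminases. Without cow 912 the median of the ATF4 response was 0.29, with 3 of its 13 genes at an unadjusted p under 0.05. The share of all genes in the fit without cow 912 is not given, so nothing is read from this count.

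Between HC and LC over all cows, *ALDH1L2*, a mitochondrial enzyme that oxidizes the folate-bound carbon unit, was the only called gene of these lists, at -0.54 on the log2 scale (standard error 0.14, edgeR adjusted p = 0.0683). The gene with the smallest p of each other list in this comparison was *SDSL* (-0.69, standard error 0.54), *GLDC* (0.30, 0.12), *PHYKPL* (-0.29, 0.12), *GLUL* (-0.35, 0.16), *NUPR1* (0.20, 0.06) and *TDO2* (0.27, 0.09). *GLDC*, the decarboxylase that works with *AMT* in glycine cleavage, thus had a value opposite in sign to that of *AMT* (-0.20), and its adjusted p was 0.252. Of the 13 ATF4 response genes, 6 had an unadjusted p under 0.05 and a lower level in HC and 1 a higher level, against 7.81% and 5.88% of all genes. Without cow 912 these were 4 and 1 genes. The share of all genes in that fit is not given, so nothing is read from the change in these counts. *ATF4* itself had -0.38 (standard error 0.13, adjusted p = 0.161) and *ASNS* (asparagine synthetase) -0.70 (0.23, adjusted p = 0.146), both named after their values had been seen. Cow 912, an LC cow, had the highest level of both, with 478 CPM of *ATF4* against a median of 164 over all cows and 51.0 CPM of *ASNS* against 8.71. Without it the values were -0.22 (0.08) for *ATF4* and -0.33 (0.14) for *ASNS*, and the summed level of the list, 1054 CPM in cow 912, was at most 789.8 CPM in any other cow.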

How the data were processed

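The authors extracted RNA of liver biopsies, made stranded mRNA libraries and sequenced 1 library per cow. They trimmed reads with Trim Galore, aligned them to UMD3.1 with HISAT2 2.1.0 and counted reads with a unique position by HTSeq 0.8.0, whose strand setting is not given in the sources used here. The deposited raw counts were used, and the deposited normalized table was not used.

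The members and gene lists were chosen with earlier results of these data known. Genes whose reads over the 31 cows summed to 20 or more were tested with edgeR 4.0.16 in R 4.3.3 (quasi-likelihood F test after TMM, Benjamini-Hochberg adjustment), with 4 groups in 1 model or both factors in an additive model. A standard error is the log2 fold change divided by the root of F. The edgeR p-values set a difference between groups against the spread between cows, and those of correlations come from permutations. Correlations used log2 CPM with a prior count of 2 and 100000 permutations within groups. DESeq2 1.42.0, RLE scaling, no filter, only the compared groups and each cow left out in turn were alternatives. The steps were tested on simulated counts. All members are named, called genes and the smallest HC versus LC p of each pathway list, and the most correlated gene of each member, of which 1 is not reported here. Within groups, the chi-square per gene of 105 pairs of cows was at least 24.5, so the libraries differed by more than sampling noise. No annotation of UMD3.1 or sequence was used here, so positions are not given.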

Additional observations from a re-analysis of the deposited data

Results flagged for a closer look

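In 7 of the 40 sets of 1 enzyme in 1 group, a cow was farther from the nearest other cow than Dixon's 95% critical value allows. Chance alone flags about 1 in 20 groups only where values are normally distributed. The distances were taken on CPM without a log and their distribution was not checked, so nothing is read from the number of flags. In GLYHC, cow 131 had 187 CPM of *PHGDH* (nearest cow 134 CPM) and 50.9 CPM of *PSPH* (nearest 14.5). In CONLC, cow 260 had 72.7 CPM of *PSPH* (nearest 30.6), and in GLYLC cow 209 had 19.5 CPM of *PSPH* (nearest 9.31). *PSPH* was thus flagged in 3 of its 4 groups, each time with a high value. In CONHC, cow 134 had 90.4 CPM of *SHMT2* (nearest 65.1) and cow 7 had 211 CPM of *GOT1* (nearest 119). In GLYHC, cow 127 had 168 CPM of *GOT1* (nearest 105). All 7 values were the highest of their group. CPM without a log spreads high values more than low ones, so nothing is read from this direction. Cow 131 also had the highest level of GLYHC for 7 of the 10 enzymes and cow 209 that of GLYLC for 6.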

How the results depend on the processing

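The log2 fold changes of enzymes with an unadjusted p under 0.05 in a comparison and the correlated pairs kept their sign under all alternatives run. Enzymes called between CONHC and CONLC were 1 with DESeq2 on all cows and 2 with DESeq2 on only the compared groups, which called 27 and 81 genes. Without cows 912, 260 and 131, 3 genes were called. Between GLYHC and GLYLC, 32 genes were called in edgeR, 66 with RLE, 143 and 87 with DESeq2 (all cows, compared groups), 0 with edgeR on the compared groups, 1 without cows 260 and 131 and 0 without also cow 912. Between GLYHC and CONHC, DESeq2 on the compared groups called 5 genes. Between GLYLC and CONLC, 10 genes were called in edgeR, 4 and 2 with DESeq2, 0 with edgeR on the compared groups, 0 without cows 260 and 131 and 0 without also cow 912. The call of *GPT2* held with RLE, without a filter and with DESeq2 on all cows (adjusted p = 0.0294), and was lost with the compared groups alone, where 0 enzymes were called in both tools, and without the cows just named. For the interaction, DESeq2 on all cows called 1 gene, *GPT2*. Between HC and LC, 134 genes were called without a filter and 434 with DESeq2, against 231, and 1 enzyme was called without the 3 cows. Between GLY and CON, DESeq2 called 1 gene. The number of correlated pairs fell from 8 to 0 without the 3 cows. The cause of these shifts was not tested. When each cow was left out, the called genes ranged from 0 to 7 (CONHC versus CONLC), 0 to 150 (GLYHC versus GLYLC), 0 to 1 (GLYHC versus CONHC), 0 to 41 (GLYLC versus CONLC, with 0 to 1 enzymes), 83 to 404 (HC versus LC) and 0 to 6 (GLY versus CON), and the correlated pairs from 1 to 11. Settings that left out several cows were chosen after seeing the data. No paired analysis was possible because each cow has its own number and the groups share none. *PSPH* and *GPT2* rest on the fewest reads.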

Other observations

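Of the lists of cell type markers, several held genes called between HC and LC over all cows, and the counts without cow 912 are given beside each. With all cows, the share of all genes was 5.88% for an unadjusted p under 0.05 and a higher level in HC, 7.81% for a lower level and 1.45% for calls. The share in fits without a cow is not given, and the genes called ranged from 83 to 404 when each cow was left out. Nothing is therefore read from the counts in such fits or from calls kept or lost in them. Of 10 macrophage markers 7 had an unadjusted p under 0.05 and a higher level in HC, and *CD68* (log2 fold change 0.61, adjusted p = 0.0948 in edgeR) and *CD5L* (0.41, adjusted p = 0.0860) were called, against 6 and 0 genes without cow 912. Of 8 stellate cell and fibroblast markers 6 had an unadjusted p under 0.05 and a lower level in HC, and *DCN*, a matrix proteoglycan, was called (-0.50, adjusted p = 0.0275), with 4 genes and again *DCN* without cow 912. CONLC cow 103 had a summed level of 2172 CPM for this list against at most 468 in any other cow, and without it 3 genes had an unadjusted p under 0.05 and *DCN* was called, while *CD68* and *CD5L* were not. Among 10 pericentral hepatocyte markers *CYP1A1* was called (-0.47, adjusted p = 0.0860), *CYP1A1* and *CYP1A2* were called without cow 912, and 0 were called without cow 103. Of the intestinal markers 4 of 8 (*FABP2*, *BCO1*, *MUC13* and *OLFM4*) were called lower in HC, each at 0 in most cows and highest in cow 912. Without cow 912 only 4 of the 8 had enough reads to be tested and 0 were called, which is not a retest of the called ones. Of the 5 smooth muscle markers 2 (*TAGLN* and *CNN1*) were called lower in HC, while without cow 912 the 1 called was *MYH11*. Of 5 epidermis markers *KRT1* and *KRT14* were called higher in HC at mean levels of 0.288 and 0.0818 CPM, and 0 without cow 912. No marker of the hepatocyte, periportal, lymphocyte, endothelium, bile duct and blood cell lists was called in edgeR with or without cow 912, with 2 of 10, 0 of 9, 1 of 11, 0 of 8, 0 of 5 and 0 of 6 at an unadjusted p under 0.05 with all cows, where the 11 lymphocyte genes include 2 listed under the symbol *GZMB*, of which 1 passed. The part of these shifts in the values of the 10 enzymes was not tested.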
